A study of Mus musculus with 20 samples.

Results

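The SNARE, complexin and vesicle priming genes of the hippocampus are a set of 8 genes, Snap25, Stx1a, Vamp1, Vamp2, Cplx1, Cplx2, Unc13a and Rims1, chosen by gene symbol from 25190 genes in the count table. All 8 were measured in every library, and each was also set beside Syt2, the gene of the calcium sensor synaptotagmin 2. The samples were hippocampal tissue of wild-type C57BL/6JOlaHsd male mice aged 4 months, 20 in all and 5 in each of 4 groups. Vehicle mice were infused with artificial cerebrospinal fluid, Control mice with small RNAs (sRNAs) pooled from the hippocampus of control individuals, and Pool 1 and Pool 2 mice with sRNAs pooled from separate cohorts of patients with schizophrenia. All 4 groups carried bilateral cannulas aimed at CA1 of the dorsal hippocampus, performed behavioural tests and were sampled 24 hours after the last of them. As a model, a group stands for 1 pool of human sRNAs given to several mice, so the mice of a group do not replicate the donors. The comparisons ask whether the release machinery differed between mice given patient and control sRNAs, between the patient pools, and between control sRNAs and vehicle.

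Neurotransmitter is released when a SNARE complex draws the synaptic vesicle onto the plasma membrane. The complex joins SNAP-25 and syntaxin 1A of the plasma membrane with a synaptobrevin of the vesicle. Complexins bind the assembled complex and hold it ready, Munc13-1 and RIM1 prime vesicles at the active zone, and synaptotagmins trigger fusion when calcium enters. In the forebrain, synaptotagmin 2 is best known from the fast-spiking interneurons that make parvalbumin, whereas most of the genes studied here serve release in neurons generally.

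Libraries held 20588280 to 25543939 counts in total, and the members held between 1497 counts (Stx1a) and 65769 counts (Snap25) in a single library. No gene of the 11 marker lists was at 0 in any library, and the markers of CA1 pyramidal neurons (summed level 471 to 1250 CPM, counts scaled to the library's normalized total) and dentate granule cells (197 to 673 CPM) were present throughout. Some libraries stood apart. Pool 2 replicate 1 had the highest summed astrocyte markers (3063 CPM, the next library 2032 CPM) and microglia markers (1098 CPM, the next 582 CPM) and the lowest interneuron markers (676 CPM). Vehicle replicate 4 had 8946 CPM of choroid plexus markers, against 2280 CPM in the next library, and Pool 2 replicate 4 had 538 CPM of thalamus markers, against 299 CPM in the next. Results that rest on these libraries are given with and without them where both were computed. In bulk tissue, fewer cells of a type and less RNA per cell cannot be told apart.

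The promoters are shown for the members whose levels moved together between mice, as described further on. RefSeq promoters (build GRCm38.p6, 300 bases ending shortly after the start of transcription) were matched by symbol for 6 of the 8 members, and Snap25 and Vamp2 had no entry in the table. Capitals mark the GC box GGGCGG, searched on both strands, which is a binding motif of Sp1-type factors.
Stx1a, chr5:135023232-135023531, plus strand: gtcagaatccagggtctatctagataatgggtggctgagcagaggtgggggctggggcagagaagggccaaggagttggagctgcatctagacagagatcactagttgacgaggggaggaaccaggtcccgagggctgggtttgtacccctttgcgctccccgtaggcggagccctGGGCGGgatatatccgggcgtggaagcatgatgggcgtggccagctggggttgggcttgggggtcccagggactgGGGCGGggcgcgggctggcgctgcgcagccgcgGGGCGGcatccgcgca
Cplx1, chr5:108549978-108550277, minus strand: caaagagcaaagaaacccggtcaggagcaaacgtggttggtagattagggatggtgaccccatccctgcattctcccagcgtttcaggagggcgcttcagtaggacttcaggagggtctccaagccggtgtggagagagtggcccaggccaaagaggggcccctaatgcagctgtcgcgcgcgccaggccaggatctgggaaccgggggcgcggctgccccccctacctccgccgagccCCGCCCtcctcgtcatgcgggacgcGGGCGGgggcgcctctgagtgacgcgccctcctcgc
Rims1, chr1:22806109-22806408, minus strand: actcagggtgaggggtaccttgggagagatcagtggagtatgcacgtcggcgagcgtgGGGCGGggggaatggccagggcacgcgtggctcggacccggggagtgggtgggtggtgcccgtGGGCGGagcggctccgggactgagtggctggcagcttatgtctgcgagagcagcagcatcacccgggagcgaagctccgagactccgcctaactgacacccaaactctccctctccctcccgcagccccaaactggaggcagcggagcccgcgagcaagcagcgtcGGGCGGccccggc
Cplx2, chr13:54302306-54302605, plus strand: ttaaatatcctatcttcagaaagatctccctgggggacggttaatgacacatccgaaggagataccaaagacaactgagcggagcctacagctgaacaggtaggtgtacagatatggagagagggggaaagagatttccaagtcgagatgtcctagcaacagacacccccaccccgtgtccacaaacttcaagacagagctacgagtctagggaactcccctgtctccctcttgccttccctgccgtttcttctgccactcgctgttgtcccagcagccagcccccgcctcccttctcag
The GC box occurred 3 times in the Stx1a promoter, 2 times in that of Cplx1, 3 times in that of Rims1 and 0 times in that of Cplx2. It was found in 5 of the 6 members' promoters, against 35.7% of all 32851 promoters in the table. The TATA box TATAAA (13.6% of all promoters), the cyclic AMP response element TGACGTCA (1.79%) and the E-box CACGTG (7.15%) had 0 matches in these 6 windows, so no motif overlapped another. These matches describe letters in a window. The windows of Cplx2 and Rims1 lie before the gene models that were counted, which begin at base 54371349 and, on the minus strand, at base 22805994.

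Levels between genes were compared as CPM per kilobase of the longest coding transcript. Snap25 stood highest at 1036 ± 149 CPM per kilobase (SD, n = 20), followed by Vamp2 (393 ± 27.3), Cplx2 (315 ± 37.9) and Cplx1 (202 ± 23.6). Unc13a (43.4 ± 5.57), Vamp1 (38.2 ± 5.49), Stx1a (36.6 ± 4.58) and Rims1 (27.7 ± 4.33) formed a lower tier, and Syt2 lay below them all at 4.00 ± 1.16 CPM per kilobase. The ranges of neighbours did not overlap between Snap25 and Vamp2, between Cplx1 and Unc13a, or between Rims1 and Syt2. Vamp1 exceeded Stx1a in only 12 of the 20 libraries, so that order is not settled by these mice, while Vamp2 exceeded Cplx2 in 18. Vamp2 varied least between mice, with a coefficient of variation of 6.95%, and the other members had 11.7% to 15.6%, against 28.9% for Syt2.

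**Figure D1:**
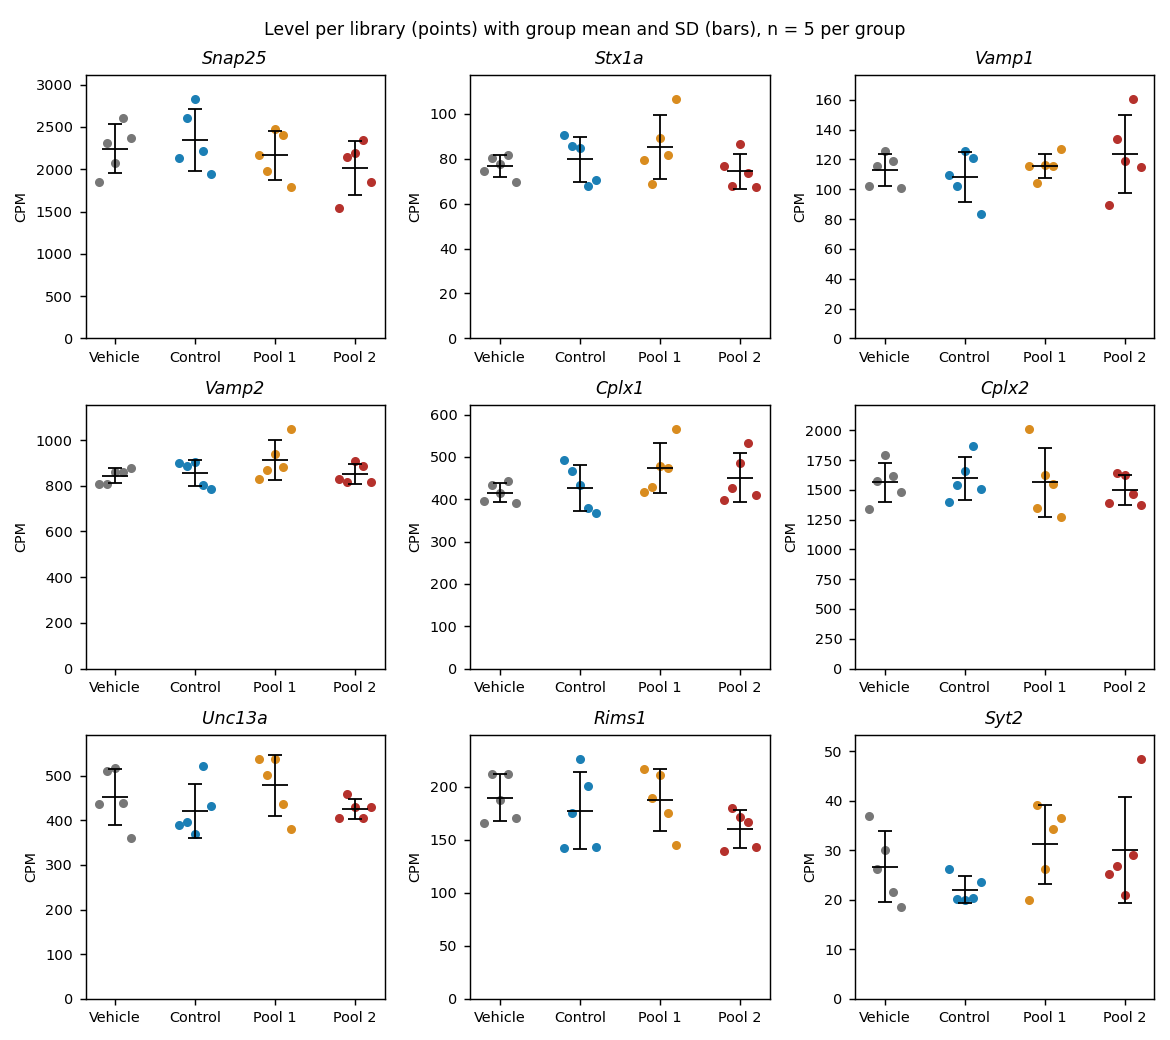
Expression in CPM (vertical axes, starting at 0) of the 8 members and Syt2 in Vehicle, Control, Pool 1 and Pool 2 mice. Points are libraries and bars are the group mean and SD with n = 5. The groups overlap for every gene shown.

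None of the 8 members was up- or downregulated in any comparison. The study's threshold asks for a log2 fold change of 0.3 or more in either direction and an unadjusted p-value under 0.05. At this threshold 0 of 8 members passed in Pool 1 against Control, where 3.48% of all genes did. Likewise 0 of 8 passed in Pool 2 against Control (6.22% of all genes), in Control against Vehicle (5.1%) and in Pool 2 against Pool 1 (6.82%). At an unadjusted p-value under 0.05 alone, 0 of 8 members passed in each comparison by edgeR and by DESeq2. By edgeR 5.22% of all genes passed in Pool 1 and 7.7% in Pool 2 against Control, 6.64% in Control against Vehicle and 8.52% between the pools. No gene of the table had an adjusted edgeR p-value under 0.05 in these comparisons (0% of genes), whereas DESeq2 gave 7, 18, 0 and 115 such genes, none a member. The adjusted edgeR p-values were 0.641 or higher. The p-values measure only the spread between these mice. The groups overlapped for each member in each comparison.

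Among the plasma membrane SNAREs, Snap25 (chromosome 2, 136713453 to 136782428, plus strand, GRCm38) encodes SNAP-25. Its level was 1846, 2312, 2072, 2605 and 2374 CPM in the Vehicle mice and 2134, 2609, 2837, 2212 and 1945 CPM in the Control mice. Pool 1 mice had 2168, 1980, 2477, 2400 and 1789 CPM, and Pool 2 mice had 1543, 2144, 2193, 2344 and 1852 CPM. The lowest library was Pool 2 replicate 1, which also carried the glial markers given above, and the highest was Control replicate 3. Snap25 had a log2 fold change of −0.22 (SE 0.13, 95% interval −0.48 to 0.04, adjusted p = 0.713) in Pool 2 against Control, and −0.14 without Pool 2 replicate 1. In Pool 1 the log2 fold change was −0.12.

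Stx1a (chromosome 5, 135023482 to 135051100, plus strand) encodes syntaxin 1A, the partner of SNAP-25. Its level was 74.5, 80.4, 77.8, 81.7 and 69.7 CPM in Vehicle mice and 90.4, 85.5, 84.8, 67.9 and 70.4 CPM in Control mice. It was 79.4, 68.6, 89.2, 81.8 and 106.8 CPM in Pool 1 mice and 76.6, 67.9, 86.4, 73.5 and 67.3 CPM in Pool 2 mice. Pool 1 replicate 5 stood above the other 19 libraries, of which the next was Control replicate 1. The difference of Pool 2 from Pool 1 had a log2 fold change of −0.20 (SE 0.11, 95% interval −0.41 to 0.02, adjusted p = 0.641), the smallest p-value of any member in any comparison. The difference of Pool 1 from Control was 0.09 on the log2 scale, and −0.00028 without Pool 1 replicate 5.

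The vesicle SNAREs are the synaptobrevins. Vamp2 (chromosome 11, 69088490 to 69092384, plus strand), the main synaptobrevin of the forebrain, lay at 809, 809, 862, 862 and 880 CPM in Vehicle mice and at 898, 889, 903, 805 and 785 CPM in Control mice. In Pool 1 mice it lay at 828, 867, 939, 882 and 1050 CPM, and in Pool 2 mice at 832, 818, 911, 886 and 816 CPM. Again Pool 1 replicate 5 was highest. The log2 fold changes of Vamp2 were 0.09 in Pool 1 and −0.01 in Pool 2 against Control. Vamp1 (chromosome 6, 125215551 to 125245964, plus strand), a synaptobrevin used by brainstem, spinal and some fast-firing neurons, lay at 102, 116, 125, 119 and 101 CPM in Vehicle mice and at 110, 102, 126, 121 and 83.4 CPM in Control mice. It lay at 116, 104, 116, 116 and 127 CPM in Pool 1 mice and at 89.6, 134, 119, 161 and 115 CPM in Pool 2 mice. The highest values were Pool 2 replicates 4 and 2, which also had the highest thalamus markers, and the spread within Pool 2 (SD 26.2 CPM) was wider than within Pool 1 (SD 7.89 CPM). The log2 fold change in Pool 2 against Control was 0.19 (SE 0.12, adjusted p = 0.766), and 0.076 without Pool 2 replicate 4. Against Pool 1 it was 0.10, and −0.02 without Pool 2 replicate 4.

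The complexins differed in level, Cplx2 being the higher per kilobase. Cplx1 (chromosome 5, 108518554 to 108550024, minus strand) had 395, 433, 415, 443 and 392 CPM in Vehicle mice and 492, 466, 433, 379 and 367 CPM in Control mice. It had 418, 429, 479, 474 and 566 CPM in Pool 1 mice and 397, 426, 486, 534 and 410 CPM in Pool 2 mice. Pool 1 replicate 5 was once more the highest library, and the lowest were Control replicates 5 and 4. The log2 fold changes against Control were 0.15 (SE 0.10) in Pool 1 and 0.08 (SE 0.10) in Pool 2. Cplx2 (chromosome 13, 54371349 to 54383917, plus strand) had 1343, 1575, 1790, 1616 and 1484 CPM in Vehicle mice and 1402, 1537, 1661, 1869 and 1509 CPM in Control mice. It had 2013, 1345, 1628, 1547 and 1275 CPM in Pool 1 mice and 1392, 1642, 1624, 1461 and 1376 CPM in Pool 2 mice. Pool 1 held both the highest library (replicate 1) and the lowest (replicate 5). The log2 fold changes of Cplx2 were −0.03 in Pool 1 and −0.09 in Pool 2.

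The priming factors were Unc13a (chromosome 8, 71624417 to 71671757, minus strand), which encodes Munc13-1, and Rims1 (chromosome 1, 22286251 to 22805994, minus strand), which encodes the active zone scaffold RIM1. Unc13a had 436, 509, 517, 439 and 361 CPM in Vehicle mice and 390, 396, 370.0, 523 and 431 CPM in Control mice. It had 537, 501, 538, 437 and 381 CPM in Pool 1 mice and 404, 458, 431, 405 and 429 CPM in Pool 2 mice. Its log2 fold change of 0.18 in Pool 1 against Control (SE 0.11, adjusted p = 0.917) had the smallest p-value of that comparison among the members, and 0.01 was found in Pool 2. Rims1 had 165, 212, 187, 212 and 171 CPM in Vehicle mice and 142, 176, 226, 201 and 143 CPM in Control mice. It had 217, 190, 211, 176 and 145 CPM in Pool 1 mice and 139, 180, 172, 166 and 143 CPM in Pool 2 mice. Control replicate 3 was highest and Pool 2 replicate 1 lowest. Rims1 showed the widest difference between the patient pools, a log2 fold change of −0.23 (SE 0.13, 95% interval −0.49 to 0.03, adjusted p = 0.661). Without Pool 1 replicate 5 the value was −0.31, past the threshold, so that the call in this comparison turns on 1 library. Without Pool 1 replicate 1 it was −0.17. Under 7 other ways of processing, which include leaving out Pool 2 replicate 1 together with Vehicle replicate 4, it was −0.27 to −0.18.

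The intervals limit how far the members could have moved. Over the 8 members, the 95% intervals of the log2 fold change ran from −0.38 to 0.41 in Pool 1 and from −0.48 to 0.44 in Pool 2 against Control. They ran from −0.36 to 0.33 in Control against Vehicle and from −0.49 to 0.35 between the pools. Expressed as ratios, the outermost bounds of the pools against Control were 0.717 and 1.36. The median absolute log2 fold change of the members was 0.09 in Pool 1 and 0.10 in Pool 2, beside 0.15 and 0.16 over all genes, which include many at low counts. The comparisons with Control share the same 5 Control mice.

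**Figure D2:**
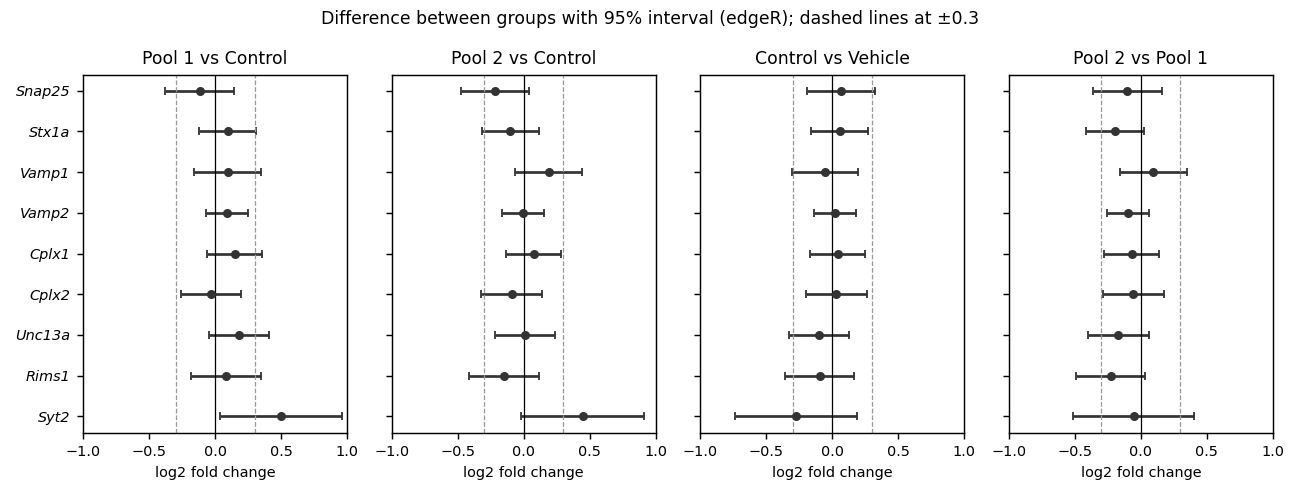
Log2 fold change (horizontal axes) of the 8 members and Syt2 in 4 comparisons, with 95% intervals from edgeR and dashed lines at ±0.3. The interval holds 0 for all 8 members in each comparison, and only that of Syt2 in Pool 1 against Control does not.

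The other genes of the release machinery were counted from a list of 50 that holds further SNAREs, complexins, Munc13 and RIM proteins, SNARE regulators, scaffolds and vesicle proteins. Of these, 49 were in the table and Vamp7 was not analysed here. In Pool 1 against Control 1 of 49 rose and 0 fell, in Pool 2 against Control 1 rose and 0 fell, in Control against Vehicle none passed, and between the pools 1 was higher and 2 were lower in Pool 2. The shares of all genes past the threshold in either direction were 3.48%, 6.22%, 5.1% and 6.82%. None had an adjusted edgeR p-value under 0.05. The gene past the threshold in Pool 1 was Cplx4, a complexin of the retina, named after its values were seen. It is listed at 0 to 0.0397 CPM in Control mice and at 0.0431 to 0.249 CPM in Pool 1 mice, mostly under the floor of 3 counts per library (0.117 to 0.146 CPM), and no fold is given.

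In Pool 2 against Control the gene was Unc13d, encoding Munc13-4, a priming factor of granule release in blood cells. Its level was 0.849, 0.992, 1.43, 1.39 and 0.796 CPM in Control mice and 3.79, 1.56, 1.58, 0.960 and 1.42 CPM in Pool 2 mice. Its log2 fold change was 0.76 (SE 0.29, adjusted p = 0.539; exact permutation p = 0.0794). Most of the difference came from Pool 2 replicate 1, without which it was 0.34 and no longer past the threshold, and that library also had the highest microglia markers (1098 CPM) and blood markers (182 CPM). Whether these cells account for Unc13d was not tested.

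Between the pools, Unc13c, which encodes Munc13-3, was higher in Pool 2, with 15.9, 18.2, 8.25, 30.3 and 17.9 CPM against 9.51, 12.8, 10.7, 11.7 and 7.81 CPM in Pool 1. Its log2 fold change was 0.79 (SE 0.28, adjusted p = 0.406; exact permutation p = 0.0635), with 4 of 5 Pool 2 mice above all Pool 1 mice. Without Pool 2 replicate 4, the library with the highest thalamus markers, it was 0.52 and no longer past the threshold. Rab3b, a vesicle GTPase, had 31.2, 27.0, 38.2, 35.6 and 36.1 CPM in Pool 2 mice and 30.6, 49.7, 41.1, 46.7 and 48.7 CPM in Pool 1 mice, a log2 fold change of −0.37 (adjusted p = 0.425; exact permutation p = 0.0635). Without Pool 2 replicate 2 it was −0.297, short of the threshold. Sv2b, a vesicle glycoprotein gene, had 321, 443, 512, 429 and 407 CPM in Pool 2 mice and 433, 538, 630.5, 507 and 534 CPM in Pool 1 mice. Its log2 fold change was −0.32 (adjusted p = 0.549; exact permutation p = 0.0476). Leaving out any of 6 libraries ended this call, and without Pool 2 replicate 1 it was −0.24.

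Syt2 was the reference for the relation between mice. It lay at 37.0, 26.2, 30.1, 21.6 and 18.6 CPM in Vehicle mice and at 26.3, 20.1, 20.1, 20.4 and 23.6 CPM in Control mice. It lay at 20.03, 39.2, 26.2, 34.3 and 36.6 CPM in Pool 1 mice and at 25.1, 26.7, 21.0, 29.1 and 48.5 CPM in Pool 2 mice. The groups overlapped, and the log2 fold change against Control was 0.50 (past the threshold, adjusted p = 0.917; exact permutation p = 0.0873) in Pool 1 and 0.45 (not past it, adjusted p = 0.674) in Pool 2. The Pool 2 value passed with DESeq2 (0.44), with only those groups (0.42), with the default spread of edgeR (0.45) and without Pool 2 replicate 1 (0.50), and it was 0.21 without Pool 2 replicate 5. The slopes below were fitted within groups, so they do not carry these differences.

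Cplx2, Rims1 and Snap25 had the most negative slopes on Syt2, in a fit with the group as a term, which compares mice within groups. The slope, the log2 change of the gene per log2 unit of Syt2 (n = 20 mice), was −0.30 for Cplx2 (SE 0.10, p = 0.00725), −0.31 for Rims1 (SE 0.13, p = 0.0210) and −0.27 for Snap25 (SE 0.13, p = 0.0393). The slopes of Stx1a, Vamp1, Vamp2, Cplx1 and Unc13a lay between −0.06 and 0.02. At an unadjusted p-value under 0.05, 3 of the 8 members had a negative slope and 0 a positive one, where 2.22% and 3.14% of all genes did. After adjustment over 25189 genes 0 of 8 members were related to Syt2, where 0.282% of genes were, and the adjusted edgeR p-values were 0.458 for Cplx2, 0.714 for Rims1 and 0.889 for Snap25. The relations of the members to Syt2 are therefore not established past the correction.

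Over the 20 mice, Pearson's r with Syt2 was −0.61 for Cplx2 (permutation p = 0.00479; Spearman's rho −0.58, p = 0.00916). It was −0.53 for Snap25 (p = 0.0176; rho −0.55, p = 0.0129) and −0.41 for Rims1 (p = 0.0747; rho −0.37, p = 0.111). The other 5 of the 8 relations had r between −0.08 and 0.18. The mice farthest from the median of Syt2 (26.2 CPM) were Pool 2 replicate 5 and Pool 1 replicate 2. Without them (n = 18) r was −0.53 for Cplx2 (p = 0.0229), −0.46 for Snap25 (p = 0.0546) and −0.38 for Rims1 (p = 0.118). Within groups (n = 20) r was −0.62 for Cplx2 (p = 0.00670), −0.47 for Snap25 (p = 0.0599) and −0.51 for Rims1 (p = 0.0172). Of 16659 genes whose normalized count averaged 10 or more, 0.582% had a smaller r with Syt2 than Cplx2, 1.59% a smaller one than Snap25 and 4.73% a smaller one than Rims1.

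**Figure D3:**
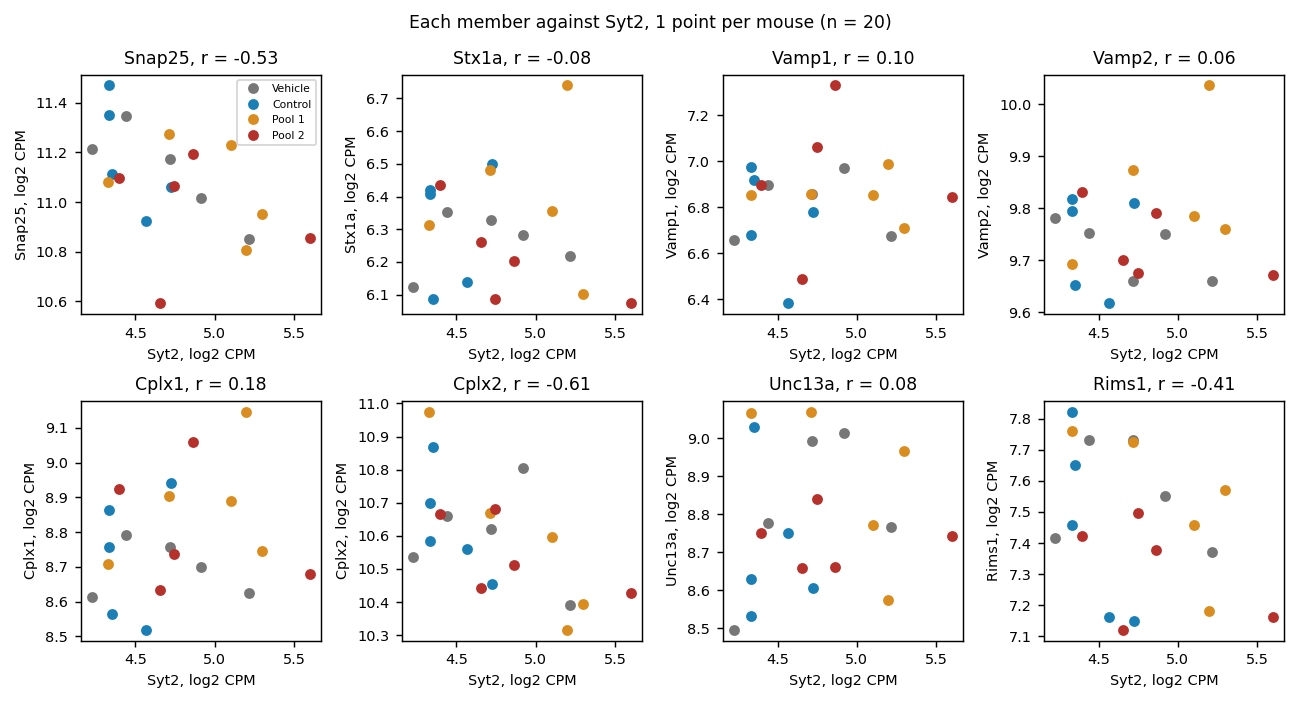
Each member (vertical axes, log2 CPM) against Syt2 (horizontal axes, log2 CPM) in the 20 mice, coloured by group, with Pearson's r above each panel. Cplx2 (r = −0.61) and Snap25 (r = −0.53) fall as Syt2 rises, while Vamp2 (r = 0.06) does not follow it.

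The CA1 pyramidal neuron markers moved with this relation. All 5 genes of that list had a positive slope on Syt2 at an unadjusted p-value under 0.05, where 3.14% of all genes did. After adjustment 0 of the 5 passed (adjusted edgeR p of 0.279 or higher). The mean of the list had an r of 0.60 with Syt2 (permutation p = 0.00518, rho 0.62) and of −0.64 with Cplx2 (p = 0.00244, rho −0.61). Adjusted over 99 relations of genes to lists, these permutation p-values were 0.0728 and 0.0483. Without the mice farthest from the median of that list, Pool 1 replicates 2 and 1, both relations were weaker. The r was then 0.49 with Syt2 (permutation p = 0.0396) and −0.47 with Cplx2 (p = 0.0503). The summed list was 687 to 931 CPM in Vehicle, 520 to 1048 CPM in Control, 471 to 1250 CPM in Pool 1 and 479 to 1003 CPM in Pool 2 mice. With the mean of this list in the fit, a choice made after seeing the data, 0 of 8 members were related to Syt2 at an unadjusted p-value under 0.05. The slopes (n = 20) were then −0.12 for Cplx2 (p = 0.333), −0.14 for Rims1 (p = 0.389) and −0.23 for Snap25 (p = 0.178). As a correlation with that list taken out of both genes, r (n = 20) was −0.45 for Snap25 (permutation p = 0.045), −0.36 for Cplx2 (p = 0.12) and −0.25 for Rims1 (p = 0.295). With the dentate granule cell list instead, also added after seeing the data, the slopes (n = 20) were −0.24 for Cplx2 (p = 0.0193), −0.28 for Rims1 (p = 0.0365) and −0.30 for Snap25 (p = 0.0262). The interneuron list, to which the r of Syt2 was 0.27, was a planned covariate. With it the slopes (n = 20) were −0.34 for Cplx2, −0.40 for Rims1 and −0.38 for Snap25 (edgeR p of 0.00354 or lower). Taken out of both genes, it left r (n = 20) at −0.79 for Snap25 (permutation p = 5e-05). The r (n = 20) was then −0.66 for Cplx2 (permutation p = 0.0015) and −0.60 for Rims1 (p = 0.00512). Unlike the slopes, the correlations with a list taken out had no group term. Pool 2 replicate 1, lowest in both the interneuron list and Snap25, was not left out of them. After adjustment over all genes, 0 of 8 members were related to Syt2 with the interneuron list either. The thalamus list had an r with Syt2 of 0.00.

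Syt2 was most alike in its pattern over the 20 libraries to Trim62 (r = 0.90), Ank1 (0.88), Kcnt1 (0.87), Ldb2 (0.86) and Cdh22 (0.86), and no member was among them. The slope on Syt2 (n = 20) was −0.10 (SE 0.11, p = 0.392) for Syt1, the main calcium sensor of forebrain synapses, and 0.30 (SE 0.22, p = 0.192) for Pvalb, which encodes parvalbumin. The marker gene with the largest absolute r to Syt2 in each list was Man1a for CA1 (0.63), Slc17a6 for thalamus (0.52), Nxph4 for neocortex (0.50), Nefl for all neurons (−0.42) and Slc32a1 for interneurons (0.40). In the other 6 lists it was Mag (0.34), Tdo2 (−0.31), Itgam (−0.30), Aqp1 (−0.28), Aldh1l1 (0.24) and Alas2 (0.17). Among the other 49 release genes 1 was related to Syt2 after adjustment over all genes, where 0.282% of all genes were. It was Cadps2, which encodes the priming factor CAPS2 of dense-core vesicles. Cadps2 lay at 117, 91.1, 101, 83.2 and 97.7 CPM in Vehicle mice and at 98.3, 96.6, 81.6, 74.4 and 126 CPM in Control mice. In Pool 1 mice it lay at 86.1, 146, 101, 129 and 125 CPM, and in Pool 2 mice at 84.2, 79.5, 76.4, 83.3 and 141 CPM. The mice with the most Syt2, Pool 2 replicate 5 and Pool 1 replicate 2, were also the highest in Cadps2. The slope was 0.65 (SE 0.11, adjusted p = 0.00734). Without Pool 2 replicate 5 it was 0.55 and with the CA1 list in the fit 0.46, both no longer past the adjusted threshold. At an unadjusted p-value under 0.05, 4 of the 49 release genes had a positive slope and 4 a negative one, where 3.14% and 2.22% of all genes did. Besides Cadps2, those with a positive slope were Cplx3 (0.54), Rims4 (0.35) and Rab3c (0.27). The 4 with a negative slope were Erc2 (−0.42), Ppfia4 (−0.24), Napa (−0.21) and Nsf (−0.21), the latter pair encoding the proteins that take spent SNARE complexes apart. Apart from Cadps2, the adjusted edgeR p-values of these genes were 0.380 (Rims4) or higher.

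Some members varied together between mice and are described in sets, which were drawn from these same mice and are not cleanly apart. Each of the 28 pairs was fitted in both directions, with each gene in turn as the covariate. In 5 pairs at least 1 direction had a slope with an adjusted edgeR p-value under 0.05, and all 7 such slopes of 56 were positive. The share of all genes with such a positive slope was 0.361% for Snap25 as the covariate, 3.66% for Stx1a, 0.171% for Vamp1, 4.36% for Vamp2, 1.16% for Cplx1, 0.623% for Cplx2, 4.42% for Unc13a and 2.15% for Rims1. Syntaxin, the synaptobrevin Vamp2 and Cplx1 formed the first set, with r of 0.82 for Vamp2 and Cplx1 (permutation p = 1e-05, the smallest the permutations can give; rho 0.81). The r was 0.80 for Stx1a and Vamp2 (p = 4e-05; rho 0.75) and 0.73 for Stx1a and Cplx1 (p = 0.00026; rho 0.74). Pool 1 replicate 5 was the highest library of all 3 genes, and without it the r of Stx1a and Vamp2 was 0.67. The slope of Cplx1 on Vamp2 was 1.40 (SE 0.31, adjusted p = 0.00681) and that of Stx1a on Vamp2 was 1.45 (SE 0.31, adjusted p = 0.00590), with positive slopes at an adjusted p-value under 0.05 in 4.36% of all genes.

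Rims1 varied with both Snap25 and Cplx2, and these 3 genes are treated as the other set. The tie of Snap25 to Cplx2 was weaker, and Unc13a also correlated with Cplx2 and Rims1. The r was 0.70 for Snap25 and Rims1 (permutation p = 0.00064, rho 0.63) and 0.70 for Cplx2 and Rims1 (p = 0.00078, rho 0.73), and 0.47 for Snap25 and Cplx2 (p = 0.0366, rho 0.54). Pool 2 replicate 1 was the lowest library of both Snap25 and Rims1. In the 18 libraries without it and Vehicle replicate 4, the r of Snap25 and Rims1 was 0.61. The slope of Snap25 on Rims1 was 0.69 (SE 0.17, adjusted p = 0.0284) and that of Cplx2 on Rims1 was 0.60 (SE 0.15, adjusted p = 0.0305), with positive slopes at that level in 2.15% of all genes. These are the 3 genes with a negative slope on Syt2 at an unadjusted p-value under 0.05. The set was drawn from the same mice as those slopes, so this match adds no support to either. Unc13a, left out of the set though its r with Cplx2 was above that of Snap25, had a slope of −0.04 on Syt2. The r of Snap25 with its partners in the SNARE complex was 0.16 for Stx1a and 0.18 for Vamp2. For the paralogs the r was 0.34 for Vamp1 and Vamp2 (permutation p = 0.142) and −0.27 for Cplx1 and Cplx2 (p = 0.247). Vamp1, in neither set, correlated with Cplx1 (r = 0.58, permutation p = 0.00746; rho 0.50). Without the mice farthest from the median of Vamp1 that r was 0.32. Unc13a correlated with Cplx2 (r = 0.57, p = 0.00922; rho 0.53) and Rims1 (0.53, p = 0.0186; rho 0.56), and with Vamp2 its r was −0.36 over all mice (p = 0.114) and −0.62 within groups. Pool 1 replicates 1 and 3 had the most Unc13a, and replicate 5 of that pool, highest in Vamp2, was among the lower libraries.

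**Figure D4:**
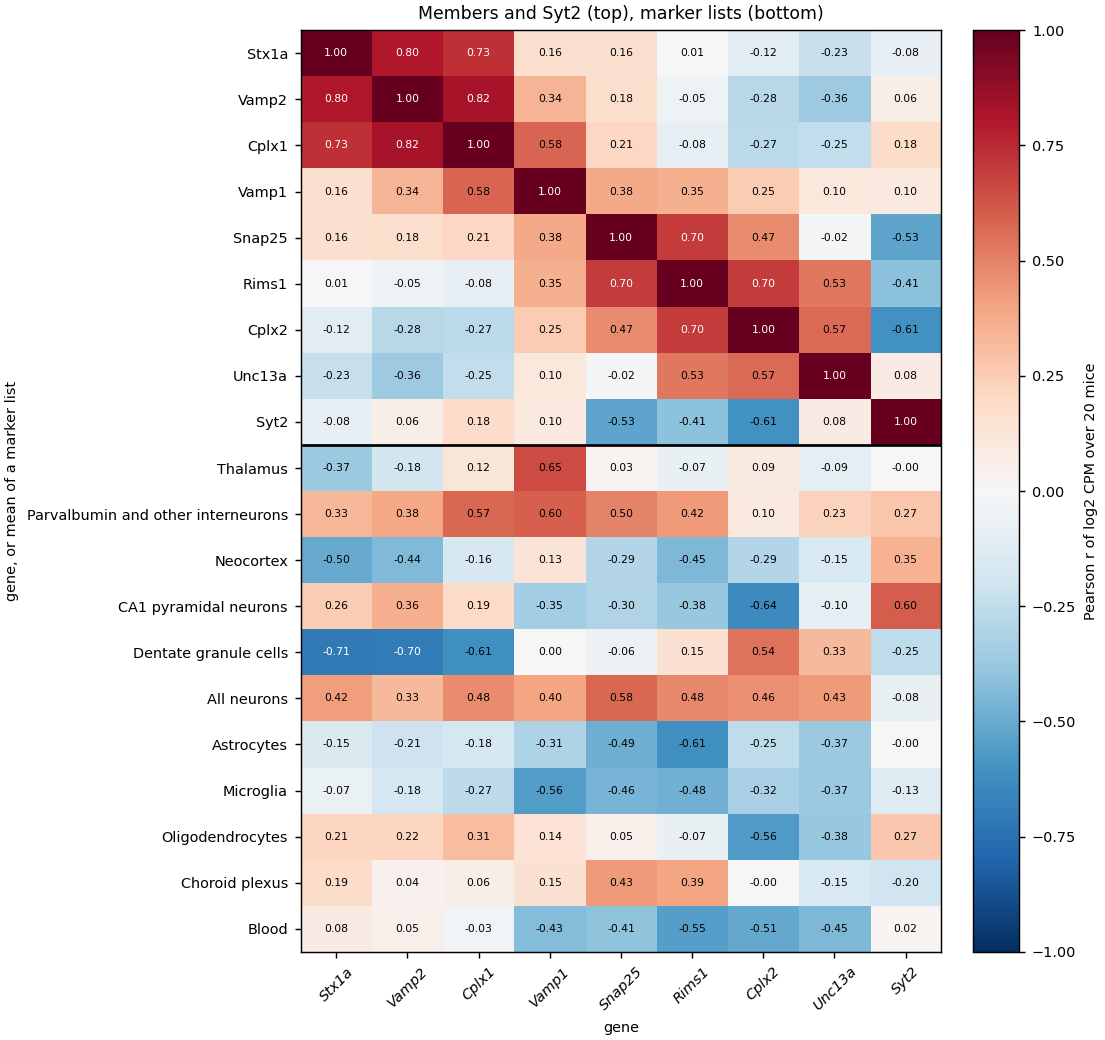
Pearson's r of log2 CPM over the 20 mice (colour and printed value) for the 8 members and Syt2 (columns) with each other (upper rows) and with the mean of 11 marker lists (lower rows). Stx1a, Vamp2 and Cplx1 form a positive block (0.73 to 0.82), as do Snap25 with Rims1 and Rims1 with Cplx2 (0.70 each).

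Markers of the dentate gyrus moved opposite to Stx1a and Vamp2 of the first set, and of the other set Cplx2 was related to a subfield list. In 99 relations of 9 genes to 11 lists, 5 had a Benjamini-Hochberg adjusted p-value under 0.05 by Pearson's r and 0 by Spearman's rho. Mice with more of the dentate granule cell list had less Stx1a (r = −0.71, permutation p = 0.00035, adjusted p = 0.0183; rho −0.69, adjusted p = 0.0835) and less Vamp2 (r = −0.70, p = 0.00037, adjusted p = 0.0183; rho −0.65). For Cplx1 the r was −0.61 (permutation p = 0.0044, adjusted p = 0.0726). Without the mice farthest from the median of that list, Control replicate 4 and Pool 1 replicate 1, the r was −0.78, −0.69 and −0.57. The summed dentate list was 289 to 448 CPM in Vehicle, 198 to 658 CPM in Control, 197 to 673 CPM in Pool 1 and 363 to 605 CPM in Pool 2 mice, and Pool 1 replicate 5, highest in all 3 genes, had the lowest. Cplx2 went the other way with the dentate list (r = 0.54, permutation p = 0.0144; rho 0.34), and its r without those mice was 0.23.

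The remaining adjusted relations were those of Cplx2 with the CA1 list (adjusted p = 0.0483), Vamp1 with the thalamus list and Rims1 with the astrocyte list. That of Cplx2 had an r of −0.47 (permutation p = 0.0503) without Pool 1 replicates 2 and 1. The r of Vamp1 with the thalamus list was 0.65 (p = 0.00231, adjusted p = 0.0483; rho 0.51), and 0.28 (p = 0.259) without Pool 2 replicates 4 and 2, so it rests on those mice. The summed thalamus list was 119 to 168 CPM in Vehicle, 82.1 to 200.4 CPM in Control, 68.6 to 106 CPM in Pool 1 and 103 to 538 CPM in Pool 2 mice. Vamp1 also had an r of 0.60 with the interneuron list (permutation p = 0.00588, adjusted p = 0.0728), as Cplx1 had of 0.57 (p = 0.00842, adjusted p = 0.0834). Without Pool 2 replicate 1 and Vehicle replicate 5 these were 0.44 (permutation p = 0.0688) and 0.54 (p = 0.0202). With the microglia list the r of Vamp1 was −0.56 (permutation p = 0.0190, adjusted p = 0.134; rho −0.51), −0.37 without those mice (p = 0.132) and −0.76 within groups (p = 0.00266). The r of Rims1 with the astrocyte list was −0.61 (p = 0.00217, adjusted p = 0.0483; rho −0.54), and −0.50 (p = 0.0363) without Pool 2 replicate 1 and Vehicle replicate 4. The summed astrocyte list was 1369 to 1813 CPM in Vehicle, 1638 to 2030 CPM in Control, 1436 to 1673 CPM in Pool 1 and 1653 to 3063 CPM in Pool 2 mice. What part the amount of each subfield or cell type in the tissue had in the levels of the members was not tested.

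**Figure D5:**
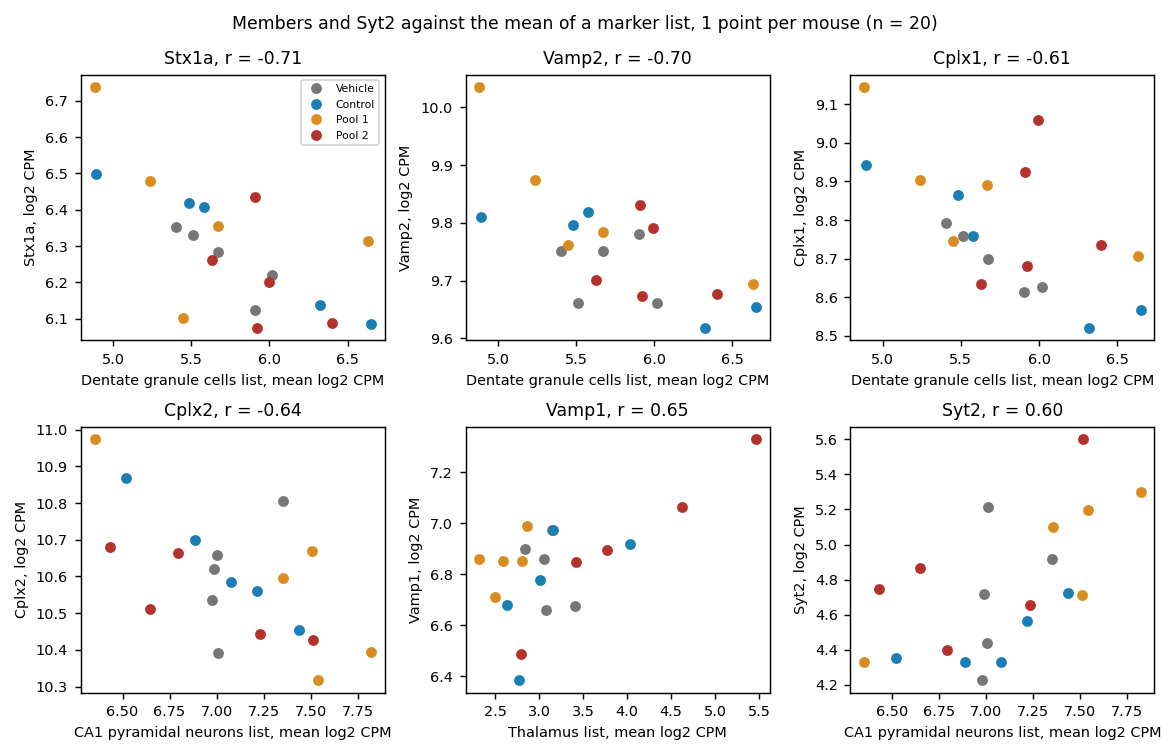
Stx1a, Vamp2 and Cplx1 against the dentate granule cell list, Cplx2 and Syt2 against the CA1 list, and Vamp1 against the thalamus list, in log2 CPM on both axes, 1 point per mouse coloured by group. Stx1a (r = −0.71) and Vamp2 (r = −0.70) fall along the dentate list, and the rise of Vamp1 (r = 0.65) leans on Pool 2 mice at the right.

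Each member had a closest neighbour among all genes. Over the 20 libraries Snap25 was most like Dlat (r = 0.93), Stx1a most like Actr1a (0.93), Vamp1 most like Adarb1 (0.78), Vamp2 most like Larp6 (0.93), Cplx1 most like Trim3 (0.88), Cplx2 most like Nptx1 (0.88), Unc13a most like Adgrl1 (0.93) and Rims1 most like Cdk14 (0.95). None of these is a member or a gene of the release list, and the points share the depth and tissue makeup of their library.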

How the data were processed

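Poly(A)-selected, stranded RNA libraries of 20 mouse hippocampi were analysed. The authors aligned single-end reads to GRCm38 with STAR and deposited raw counts per gene without normalization, using GENCODE M20 per the methods. The smallest gene total was 10. Libraries were grouped by the sample labels. Positions and lengths came from GENCODE M21, in which the members had the same coordinates.

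After TMM scaling, the robust quasi-likelihood test of edgeR 4.0.16 (R 4.3.3) was run in 1 fit of 4 groups over all 25190 genes, with Benjamini-Hochberg adjustment. The threshold (absolute log2 fold change of 0.3, unadjusted p-value under 0.05) is that of the study. Relations used a slope on the library's log2 CPM of Syt2 or of a member (prior count 2) with a group term. Correlations used 100000 two-sided permutations (seed 1), and exact permutation tests of 5 against 5 mice cannot give less than 0.00794. Members were named throughout; other release genes were named when past the threshold with a mean of 10 or more normalized counts, and for likeness the 5 genes nearest Syt2 and the 1 nearest each member, with Syt1, Pvalb and the gene of each marker list closest to Syt2. Cplx4, under that mean, was named as the 1 gene behind a count. The other genes with a slope on Syt2 and the marker lists tied to members were named after their values were seen. The members and lists were chosen with earlier results of these data known. Of the marker lists, Ctgf was not analysed here. Steps were tested on simulated data. The planted changes were larger than the members' group differences and slopes on Syt2, so effects of the members' size were not covered. DESeq2 1.42.0, other scalings, filters, groups, covariates and libraries were alternatives. The chi-square per degree of freedom between replicates was 8.22 to 66.8, far over sampling noise, so each counted once. A floor of 3 counts covers counting error only. Replicate numbers were not taken as pairs.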

Additional observations from a re-analysis of the deposited data

Results flagged for a closer look

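Unc13c, Rab3b and Sv2b were marked because Pool 2 differed from Pool 1 under the same contrast, with log2 differences of 0.79, −0.37 and −0.32 and exact permutation p-values of 0.0635, 0.0635 and 0.0476, none with an adjusted edgeR p-value under 0.05. The difference of Sv2b was called in 14 of the 20 fits that left out a library. In 36 groups of 5 libraries (the 8 members and Syt2 in 4 groups), no library lay far enough from the others to be marked, where chance marks about 1 in 20. Pool 2 replicate 5 came closest, in Syt2. Its gap to the next library was 0.707 of the group's range, where a mark needs more than 0.71.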

How the results depend on the processing

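No member passed the threshold in any of the 4 comparisons under the 7 alternatives (DESeq2, its size factors, a mean of 10 or more normalized counts, only the groups compared, the replicate block, the default spread, and 18 libraries without Vehicle replicate 4 and Pool 2 replicate 1), and none was related to Syt2 after adjustment under 11 alternatives. The members had 1497 or more counts in each library, and the effect of depth on their calls was not tested. The cause of the changes below was not tested. Other release genes past the threshold numbered 0 in Pool 1 against Control with DESeq2 or the filter (1 as reported) and 2 with 18 libraries, 2 in Pool 2 against Control with DESeq2 or the default spread (1 as reported), and 5 between the pools with DESeq2 or only those groups (3 as reported). With the CA1 list as a covariate, added after seeing the data like the dentate list, 0 members were related to Syt2 at an unadjusted p-value under 0.05 (3 as reported) and 0 other release genes after adjustment (1 as reported). Syt2 in Pool 2 against Control (0.45, not past the threshold) passed with DESeq2 (0.44), only those groups (0.42), the default spread (0.45) and 18 libraries (0.50).

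Replicate numbers did not pair the mice: same-numbered libraries had correlations of −0.32 to 0.28, and 4 of 20 correlated best with their own number. With the replicate block, 2 other release genes passed in Pool 1 against Control, where Syt2 (0.50) no longer did, 1 member (Cplx2) was related to Syt2 at an unadjusted p-value under 0.05, with slopes of −0.21 for Snap25 and −0.21 for Rims1, and the slopes of Vamp1 (0.056) and Unc13a (0.025) turned positive, while the correlation of Snap25 with Syt2 was −0.57.

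Values near 0 changed sign. The log2 fold change in Pool 2 against Control became −0.014 for Unc13a with only those groups and 0.0025 for Vamp2 with 18 libraries, where that of Syt2 between the pools became 0.0029. Slopes on Syt2 without a group term were 0.054 for Vamp1, 0.018 for Vamp2 and 0.028 for Unc13a. With the interneuron list the slope of Cplx1 was −0.052 and the correlations were −0.082 for Vamp1 and −0.056 for Vamp2. With the CA1 list the slopes were 0.21 for Vamp1, −0.031 for Cplx1 and 0.10 for Unc13a, and the correlation of Vamp2 was −0.22. With the dentate list the slopes were −0.073 for Cplx1 and 0.034 for Unc13a, and the correlation of Vamp2 was −0.17.

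Leaving out each library in turn, members past the threshold stayed at 0 except between the pools (0 to 1, Rims1 without Pool 1 replicate 5). Other release genes past it ranged from 0 (without Control replicates 1 or 3) to 2 (without Control replicate 4, Pool 1 replicate 1 or Pool 2 replicate 5) in Pool 1 against Control. They ranged from 1 to 3 in Pool 2 against Control (3 without Control replicate 4, 2 without Pool 2 replicates 3 or 5), from 0 to 1 in Control against Vehicle (1 without Control replicates 4 or 5) and from 2 to 5 between the pools (5 without Control replicate 4, Pool 1 replicate 5 or Pool 2 replicate 5). Members related to Syt2 at an unadjusted p-value under 0.05 ranged from 1 to 3, with 1 left without Vehicle replicate 1 or Pool 1 replicate 1, and other release genes after adjustment from 0 (without Pool 2 replicate 5) to 1. Syt2 in Pool 1 against Control was no longer past the threshold without Control replicates 2, 3 or 4 or Pool 1 replicates 2, 4 or 5 (0.41 without Pool 1 replicate 2), and in Pool 2 against Control it ranged from 0.21 (without Pool 2 replicate 5) to 0.55. Log2 fold changes that changed sign ranged from −0.00028 to 0.16 (Stx1a) and −0.14 to 0.034 (Cplx2) in Pool 1 against Control, and from −0.040 to 0.014 (Vamp2) and −0.032 to 0.088 (Unc13a) in Pool 2 against Control. In Control against Vehicle the ranges were −0.011 to 0.13 (Snap25), −0.11 to 0.025 (Vamp1), −0.00011 to 0.049 (Vamp2), −0.015 to 0.090 (Cplx1) and −0.025 to 0.085 (Cplx2). Between the pools they were −0.29 to 0.050 (Syt2), −0.018 to 0.19 (Vamp1), −0.14 to 0.0014 (Cplx1) and −0.12 to 0.049 (Cplx2). Slopes on Syt2 ranged from −0.12 to 0.0052 (Stx1a), −0.073 to 0.032 (Vamp1), −0.084 to 0.0077 (Vamp2), −0.055 to 0.11 (Cplx1) and −0.13 to 0.030 (Unc13a). Correlations with Syt2 ranged from −0.33 to 0.10 (Stx1a), −0.19 to 0.20 (Vamp2) and −0.041 to 0.19 (Unc13a).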
